A study of Sus scrofa with 189 samples.

Results

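Skeletal actin (ACTA1), the fast-type myosin-binding protein C (MYBPC2), the Z-disc proteins myozenin 1 and 2 (MYOZ1 and MYOZ2), the stretch-response proteins CSRP3 and ANKRD2, and the calcium buffer parvalbumin (PVALB) were followed through the longissimus dorsi, the long back muscle, of 189 pigs. The 7 genes were taken by their symbol in the deposited table, and the values of all their listed transcripts were summed per gene identifier. They are 7 of 12651 genes in the table and 19 of its 18114 transcripts, and all 7 passed the filter on low values that left 10717 genes for testing. Each was set against MYH7, the slow (type I) myosin heavy chain, and MYH4, the fastest (type IIB) one.

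All animals were F1 offspring of 8 Duroc boars and Luchuan sows, kept on the same diets at 1 farm and slaughtered at 210 ± 6 days of age, and the muscle was sampled 25 minutes after death at the thoracolumbar junction. Polyadenylated RNA was sequenced as 150-bp paired reads on an Illumina instrument, with 1 library per animal. Intramuscular fat content (IMF), whose unit the labels do not give, is recorded for 21 animals whose titles carry the mark re-analyzed and for 143 unmarked animals. A further 25 unmarked animals have no IMF recorded. What the mark means is not stated in the labels. The re-analyzed libraries fall into 10 animals at high IMF (4.83 to 6.84) and 11 at low IMF (0.77 to 2.33), whereas the unmarked animals ran from 1.19 to 5.61.

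The sarcomere is the repeating contractile unit of muscle, in which thin filaments of actin are anchored at the Z-disc and slide past thick filaments of myosin. Muscle fibres differ in the myosin they carry: slow fibres use MYH7, and fast fibres use other heavy chains, of which MYH4 is the fastest. The longissimus dorsi of pigs is a mostly fast, glycolytic muscle. Besides holding the filaments, the Z-disc is a site where signalling proteins sense load, and CSRP3 and ANKRD2 are known, from rodents above all, as genes that change with stretch.

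No unit stands in the deposited table, and from its layout and sums the values are read here as FPKM, a fragment number per transcript length and library size, so that levels of different genes can be set side by side. Read counts are not in the table, which leaves sequencing depth unknown, and all errors are the spread between animals. Summed FPKM per library ran from 364109 to 465105, with a median of 415170. Unmarked library 39 had the lowest median correlation with the other libraries (0.889), closely followed by unmarked library 122 (0.892). The summed level of 10 adipocyte markers was 3382 FPKM in library 39, against 465 in the next highest library. These are whole pieces of muscle, in which fewer fibres of a type and less RNA per fibre cannot be told apart.

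ACTA1, the actin of the skeletal thin filament, was the most abundant gene of the table, at 27441 ± 8737 FPKM (SD, n = 189). It lies on chromosome 14 of Sscrofa11.1 from 60412628 to 60422994 on the + strand. It took 6.56% of all FPKM on average, between 1.13% and 10.9% in different muscles. Its lowest value was 4545 FPKM in re-analyzed library 104 of low IMF, its median 27079 and its highest 48861 FPKM in unmarked library 165. The next lowest muscle had 10557 FPKM, so that library 104 stood by itself at the low end.

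MYOZ1 and MYBPC2 were abundant and varied little. MYOZ1, which binds alpha-actinin and the phosphatase calcineurin and is the form known from fast fibres, averaged 2051 ± 415 FPKM, with a lowest, median and highest value of 1239, 2016 and 3709 FPKM (chromosome 14, 76442583 to 76452808, − strand). MYBPC2, the fast form of the protein that braces the thick filament, averaged 1786 ± 329 FPKM, with 953, 1758 and 2728 FPKM at its lowest, median and highest (chromosome 6, 55281803 to 55310295, + strand). On the log2(FPKM + 1) scale the SD between animals was 0.29 for MYOZ1 and 0.27 for MYBPC2, below the median of 0.37 over all genes tested.

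MYOZ2, the myozenin of slow fibres and heart, was far lower than MYOZ1. It averaged 50.0 ± 25.2 FPKM, with 8.88, 46.5 and 131 FPKM at its lowest, median and highest (chromosome 8, 104577789 to 104609364, − strand). Within a muscle the level of MYOZ2 was 2.43% of that of MYOZ1 at the median, with a range of 0.568% to 6.59%.

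The stretch-response genes and parvalbumin were lower than ACTA1, MYOZ1 and MYBPC2 and varied widely. By mean level CSRP3 was rank 260, ANKRD2 rank 606 and PVALB rank 1783 of all 12651 genes. CSRP3, a LIM protein of the Z-disc also called muscle LIM protein, averaged 154 ± 103 FPKM, with 22.1, 126 and 602 FPKM at its lowest, median and highest (chromosome 2, 40227863 to 40240376, + strand). ANKRD2, an ankyrin-repeat protein that binds the giant protein titin, averaged 60.9 ± 62.9 FPKM, with 4.16, 40.4 and 456 FPKM at those points (chromosome 14, 108944791 to 108959382, + strand). Its highest muscle lay 110-fold above its lowest, and its SD of 1.37 log2 units was rank 28 of all 10717 genes.

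PVALB, which soaks up calcium in the cytosol of fast fibres and is abundant in mouse fast muscle, averaged 18.6 ± 17.3 FPKM (chromosome 5, 10953580 to 10974006, + strand). Its lowest, median and highest values were 0.337, 13.6 and 121 FPKM, a 358-fold range, and its SD of 1.27 log2 units was rank 51. It was above 1 FPKM in 185 of 189 muscles. The listed extent of ANKRD2 overlaps UBTD1 and HOGA1, so that reads in the shared stretches could belong to either gene.

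MYH4 averaged 1984 ± 817 FPKM, from 288 FPKM in library 39 to 4207 FPKM, and MYH7 averaged 829 ± 337 FPKM, from 106 to 1989 FPKM. The myosin heavy chains are near-identical in places, so that reads shared between them could be counted under either. In the order of mean levels, ACTA1 stood above MYOZ1, MYOZ1 above MYH4, MYH4 above MYBPC2, and then came MYH7, CSRP3, ANKRD2, MYOZ2 and PVALB. ACTA1 was above MYOZ1 in 189 of 189 muscles, MYBPC2 above MYH7 in 187, MYH7 above CSRP3 in 188, CSRP3 above ANKRD2 in 172 and MYOZ2 above PVALB in 158 (each permutation p = 1e-05, 2-sided sign flips of the log2 difference within an animal, the smallest that 100000 permutations can give).

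Neighbours in that order were closer elsewhere. MYOZ1 was above MYH4 in 106 of 189 muscles (mean log2 difference 0.15, permutation p = 0.00723). MYH4 and MYBPC2 did not differ beyond their spread (0.05, p = 0.322 by permutation), nor did ANKRD2 and MYOZ2, whose mean log2 difference of -0.16 was opposite to the order of their means (ANKRD2 higher in 84 of 189, permutation p = 0.152).

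**Figure D1:**
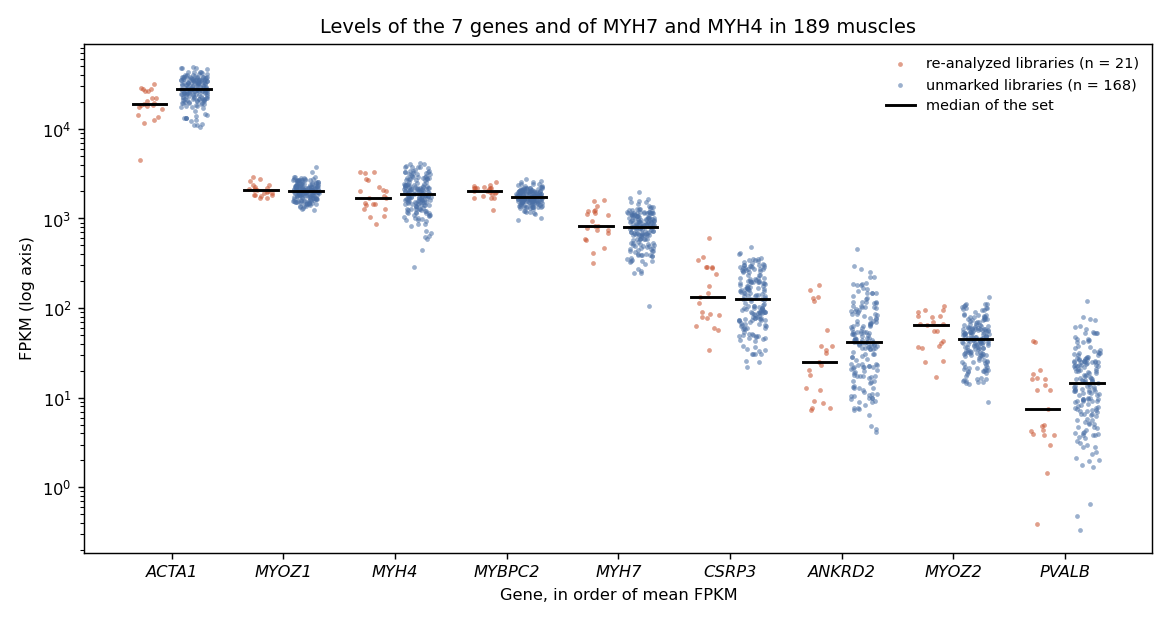
FPKM of the 7 genes and of MYH7 and MYH4 on a log axis, 1 point per muscle, with the 21 re-analyzed libraries left of the 168 unmarked ones and a bar at each median. ACTA1 lies above every other gene in each set, and the points of ANKRD2 and PVALB spread furthest.

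The relation to the slow myosin asks which of the 7 genes go with a slow-fibre composition. MYOZ2 and CSRP3 were higher in muscles with more MYH7, and PVALB was lower in them. ACTA1, MYBPC2, MYOZ1 and ANKRD2 did not pass the test. The slope of log2(FPKM + 1) on that of MYH7 was fitted with limma over 189 muscles, with the mark as a covariate and Benjamini-Hochberg adjustment over 10716 genes, and a gene was called at an adjusted p under 0.05. Of those genes 4.08% were called, 2.94% higher and 1.14% lower, against 2 members higher and 1 lower. The median slope was 0.06 over the 7 members and -0.01 over all genes.

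The slope of MYOZ2 was 0.53 log2 units per log2 unit of MYH7 (SE 0.0729, limma adjusted p = 5.79e-09). Unmarked library 56 held the lowest value of both genes, 8.88 FPKM of MYOZ2 and 106 FPKM of MYH7, and the slope without it was 0.50. Pearson's r was 0.467 and Spearman's rho 0.419, measures in which 4.01% and 3.91% of all genes were called (permutation p = 1e-05 each, adjusted over 10716 genes to 0.00134 and 0.00139), and r was 0.428 without the 2 muscles farthest from the median of MYH7. Within the sets, r was 0.849 in the 21 re-analyzed libraries and 0.426 in the 168 unmarked ones, and the difference in slope between the sets did not pass the test (0.47, 95% interval -0.01 to 0.95, limma adjusted p = 0.774).

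The 2 myozenins differed in this relation. The log2 ratio of MYOZ2 to MYOZ1 rose by 0.47 per log2 unit of MYH7 (SE 0.0799, permutation p = 1e-05, the smallest possible), with 0.84 in the re-analyzed libraries and 0.43 in the unmarked ones. The slope of MYOZ1 itself was 0.06 (95% interval -0.01 to 0.12, limma adjusted p = 0.370).

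CSRP3 had a slope of 0.37 (SE 0.108, limma adjusted p = 0.0271). Its highest muscle, re-analyzed library 151 with 602 FPKM, had 1151 FPKM of MYH7. The second highest, unmarked library 187 with 485 FPKM, had 653 FPKM of MYH7. At the low end, library 16 had 22.1 FPKM of CSRP3 and 736 FPKM of MYH7. Library 56 had 25.1 FPKM of CSRP3 and 106 FPKM of MYH7, but library 122 had 25.7 and 1556 FPKM. Pearson's r was 0.241 (permutation p = 0.00094, adjusted 0.0313), while the rank correlation of 0.203 did not pass (p = 0.00562 by permutation, adjusted 0.0968). Without the 2 muscles farthest in MYH7, r was 0.226, and r was 0.284 in the re-analyzed libraries and 0.236 in the unmarked ones. The call was lost without the 2 lowest and 2 highest MYH7 muscles (slope 0.34, limma adjusted p = 0.101) and with the most abundant transcript of each gene alone (0.33, adjusted p = 0.0853). CSRP3 has 1 listed transcript, so that in the latter fit its own values stayed the same and those of MYH7 changed.

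ANKRD2, known like CSRP3 as a stretch-response gene, had a slope of 0.02 (95% interval -0.28 to 0.32, limma adjusted p = 0.966). The log2 ratio of ANKRD2 to CSRP3 fell by 0.35 per log2 unit of MYH7 (SE 0.128, permutation p = 0.00638). It fell by 0.42 in the unmarked libraries (permutation p = 0.00254), whereas the slope was 0.24 in the re-analyzed ones (p = 0.457 by permutation), and it was -0.24 without the 2 lowest and 2 highest MYH7 muscles (permutation p = 0.0852).

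PVALB had a slope of -0.44 (SE 0.134, limma adjusted p = 0.0406), the lowest slope of all 10716 genes. By limma p-value, however, it was rank 373, and 3.66% of genes had a larger absolute r with MYH7. Pearson's r was -0.229 (permutation p = 0.00148, adjusted 0.0421) and rho was -0.245 (permutation p = 0.00067, adjusted 0.0263). It was -0.221 without the 2 farthest muscles, -0.309 in the re-analyzed libraries and -0.219 in the unmarked ones. The slope was negative under every alternative run, but it was not called after a shift to a common median (-0.21, limma adjusted p = 0.252), nor in the unmarked libraries alone (-0.41, adjusted p = 0.0690, with 4.31% of all genes called), nor under the other settings given at the end.

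ACTA1 had a slope of -0.09 (95% interval -0.20 to 0.01, limma adjusted p = 0.386) and MYBPC2 one of 0.06 (95% interval 0.00 to 0.12, adjusted p = 0.299). MYBPC2 and MYOZ1 were called higher after the shift to a common median (0.14 and 0.16, adjusted p = 0.00187 and 0.00175), under which 1657 genes were called higher and 1158 lower. With quantile normalization 659 were higher and 442 lower, and after rescaling without the 10 highest genes 557 and 495, against 315 and 122 in the values as deposited. MYH4 against MYH7 did not pass (r = 0.0740 and rho = 0.0249, permutation p = 0.315 and 0.736). With MYH4 in the same fit MYOZ2 (0.54), CSRP3 (0.38) and PVALB (-0.48) were called, in a fit that called 4.79% of all genes.

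**Figure D2:**
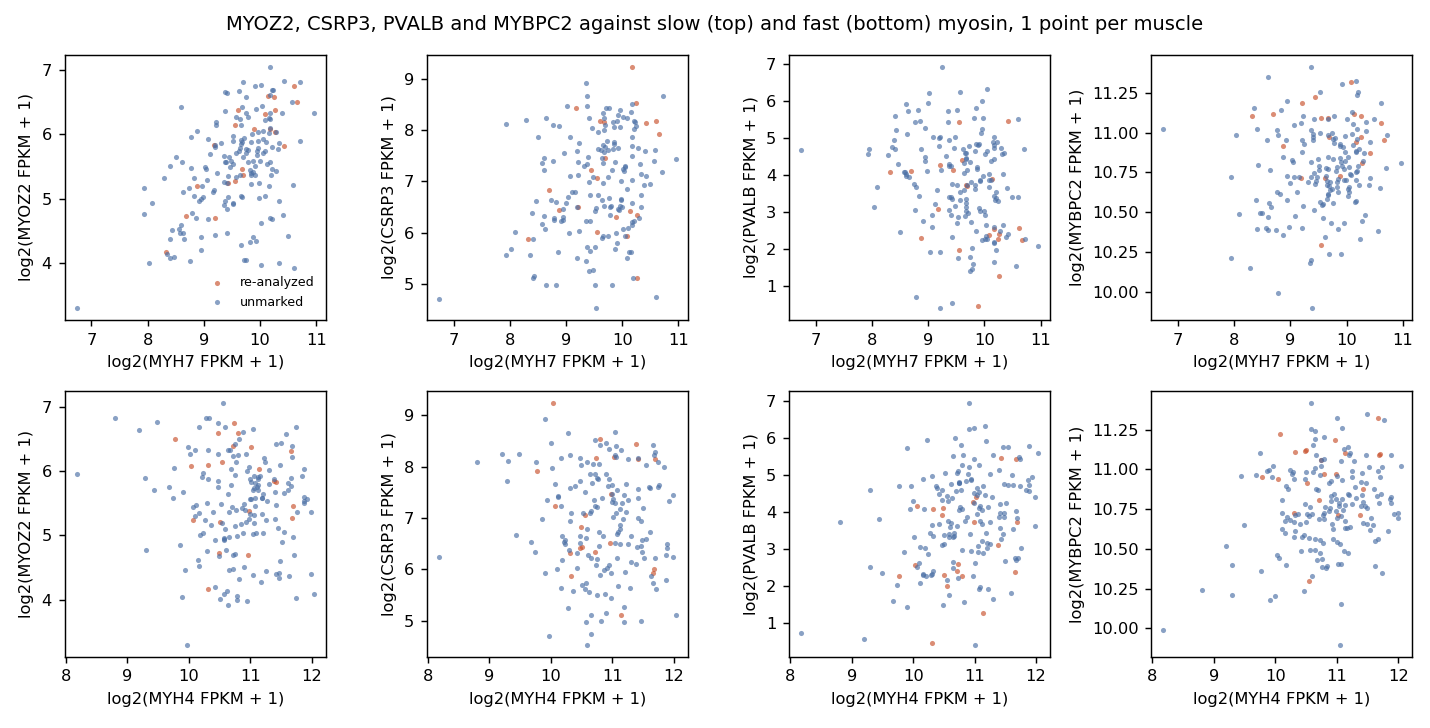
log2(FPKM + 1) of MYOZ2, CSRP3, PVALB and MYBPC2 against that of MYH7 in the upper row and of MYH4 in the lower row, 1 point per muscle, coloured by set of libraries. MYOZ2 climbs with MYH7 (slope 0.53), and PVALB descends with MYH7 (slope -0.44) and climbs with MYH4 (slope 0.61).

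Related genes were counted in the same fits, with 4 at most named per list by the size of their slope. All 8 measured slow fibre genes were higher with MYH7 (median slope 0.70), among them the slow calcium pump ATP2A2 (0.78), the slow light chain MYL3 (0.74) and the slow troponins TNNI1 (0.73) and TNNC1 (0.70). Of 23 Z-disc genes 4 were higher and 0 lower: KY (0.42), PDLIM1 (0.41), FHL1 (0.24) and alpha-actinin 2, ACTN2 (0.23). The median slope of that list was -0.01, as for all genes. Of 13 thick filament and M-band genes 5 were higher and 0 lower, led by the slow myosin-binding protein C, MYBPC1 (0.35), and the M-band proteins MYOM3 (0.35), MYOM1 (0.22) and MYOM2 (0.21).

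Of 11 thin filament genes only the slow tropomyosin TPM3 passed (0.68), and of 4 other actins 0 did. Among 9 further ankyrin-repeat and stretch-response genes IGFN1 was higher (0.19), while ANKRD1, the closest relative of ANKRD2 among them, had a slope of -0.23 (SE 0.144, limma adjusted p = 0.432). Of 9 calcineurin genes RCAN2 was higher (0.11). Of 12 calcium handling genes ATP2A2, its inhibitor phospholamban, PLN (0.47), and the slow calsequestrin CASQ2 (0.33) were higher, and sarcolipin, SLN, was lower (-0.12). Of 10 fast fibre genes MYLK2 was higher (0.22), and MYL1 (-0.13), TNNC2 (-0.12) and TNNT3 (-0.11) were lower. Of 34 tested markers of adipocytes, fibroblasts, endothelium, smooth muscle, macrophages and red blood cells 0 passed in this fit (limma, with 5 at an unadjusted p under 0.05).

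Against the fast myosin MYH4, PVALB was higher in muscles with more of it, MYBPC2 was slightly higher and MYOZ1 slightly lower. Here 14.9% of 10716 genes were called, 1.27% higher and 13.6% lower, against 2 members higher and 1 lower. The median slope was 0.04 over the members and -0.03 over all genes. The split of all calls depended on scaling: 136 genes were higher and 1459 lower in the values as deposited, 443 and 141 after a shift to a common median, 319 and 326 with quantile normalization, and 207 and 448 after rescaling without the 10 highest genes.

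PVALB rose by 0.61 log2 units per log2 unit of MYH4 (SE 0.134, limma adjusted p = 0.00042), the second highest slope of all genes. By limma p-value, however, it was rank 240, and 2.45% of genes had a larger absolute r with MYH4. Pearson's r was 0.314 and rho 0.262, where 15.1% and 5.79% of all genes were called (permutation p = 5e-05 and 0.00034, adjusted 0.00143 and 0.0128). It was 0.282 without the 2 muscles farthest in MYH4, 0.332 in the re-analyzed libraries and 0.312 in the unmarked ones. Library 39, with the lowest MYH4, had 0.657 FPKM of PVALB, and without it the slope was 0.55 (limma adjusted p = 0.00364). Within a muscle PVALB was 0.699% of the level of MYH4 at the median, between 0.0163% and 6.28%.

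MYBPC2 had a slope of 0.10 (SE 0.0294, limma adjusted p = 0.00857), with r = 0.250 (permutation p = 0.00058, adjusted 0.0084) and rho = 0.180 (p = 0.014 by permutation, adjusted 0.135). The r was 0.170 without the 2 farthest muscles, 0.137 in the re-analyzed libraries and 0.260 in the unmarked ones. Library 39 held its second lowest value, 1017 FPKM, and without that library the slope was 0.08 and not called (limma adjusted p = 0.0661), while 8.79% of all genes were. It was not called either with quantile normalization (0.09, adjusted p = 0.0813).

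MYOZ1 had a slope of -0.09 (SE 0.0324, limma adjusted p = 0.0367), with r = -0.206 (permutation p = 0.00453, adjusted 0.0354) and rho = -0.191 (p = 0.00845 by permutation, adjusted 0.0983). The r was -0.238 without the 2 farthest muscles, -0.0772 in the re-analyzed libraries and -0.216 in the unmarked ones. Its direction depended on scaling: the slope was 0.042 after a shift to a common median (limma adjusted p = 0.647) and -0.03 after rescaling without the 10 highest genes (adjusted p = 0.768). ACTA1 was called higher with MYH4 under the shift to a common median (0.25, adjusted p = 0.0058), against 0.06 (adjusted p = 0.525) in the values as deposited. MYOZ2 (-0.09), CSRP3 (-0.13) and ANKRD2 (0.04) did not pass, with adjusted p from 0.528 to 0.895.

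Adipocyte markers moved with MYH4: 9 of 10 were lower in muscles with more of it, with a median slope of -0.30. Without library 39, 3 of 10 were lower, with a median slope of -0.15. Their summed level ran from 42.7 to 309 FPKM in the re-analyzed libraries and from 31.7 to 3382 FPKM in the unmarked ones, and ADIG and PPARG were at 0 in some library. With the mean of these markers in the same fit PVALB had a slope of 0.67 (limma adjusted p = 0.00038), MYBPC2 one of 0.07 (adjusted p = 0.160) and MYOZ1 one of -0.08 (adjusted p = 0.118).

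Of the related lists, 4 of 10 fast fibre genes were higher with MYH4, namely CASQ1 (0.17), MYL1 (0.13), TNNT3 (0.12) and alpha-actinin 3, ACTN3 (0.10), and 0 of 8 slow fibre genes passed. Without library 39 the count of fast fibre genes was 1. Of 13 thick filament genes 4 were higher, with MYBPH, a relative of MYBPC2, at 0.45, nebulin, NEB, at 0.21, MYOM1 at 0.19 and MYOM2 at 0.12, of which MYOM2 was not called without library 39. Of 23 Z-disc genes ACTN3, PDLIM7 (0.13) and CAPZB (0.11) were higher, and desmin, DES (-0.28), and FHL1 (-0.13) were lower. Without library 39 the Z-disc counts were 1 higher and 2 lower. Of 11 thin filament genes TMOD4 was lower (-0.11), of 4 other actins ACTG1 (-0.10, not called without library 39), and of 9 stretch-response and 9 calcineurin genes 0 passed (1 and 2 at an unadjusted p under 0.05). Of 12 calcium handling genes CASQ1 and SLN (0.10) were higher, and 0 were without library 39 (limma, 3 at an unadjusted p under 0.05).

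**Figure D3:**
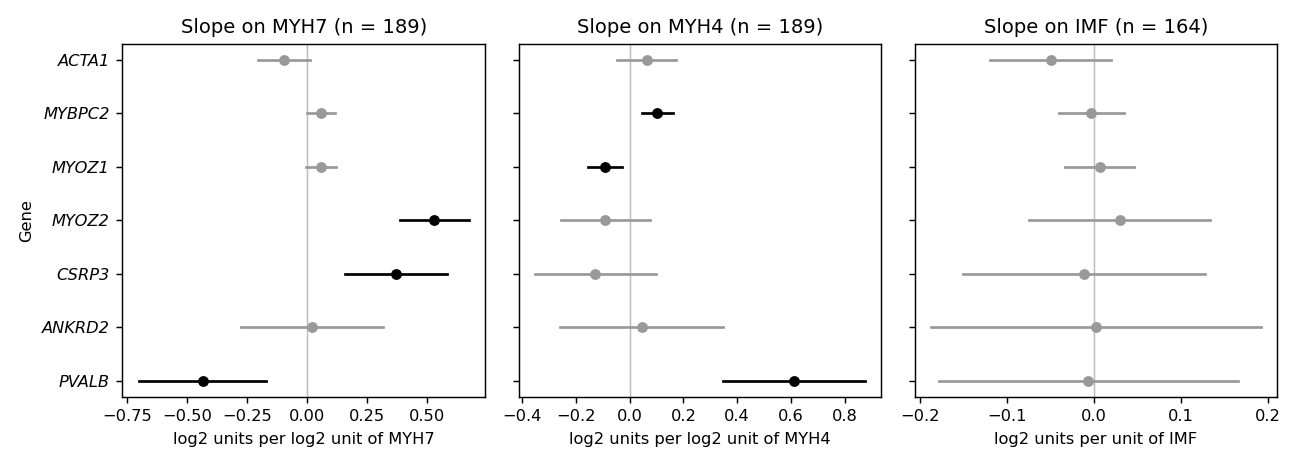
Slope of log2(FPKM + 1) of each gene on MYH7, MYH4 and IMF with its 95% interval, in black where the limma adjusted p over all genes was under 0.05 and in grey otherwise. Intervals of MYOZ2, CSRP3 and PVALB lie off 0 in the MYH7 panel, those of PVALB, MYBPC2 and MYOZ1 in the MYH4 panel, and all 7 cross 0 in the IMF panel.

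Correlations among the 7 genes ran from -0.430 to 0.551. They were taken over 189 muscles on log2 values with the mean of each set of libraries removed, and each was adjusted over 10716 genes. The strongest pair was the stretch-response one: ANKRD2 against CSRP3 had r = 0.551 and rho = 0.540 (permutation p = 1e-05 each, adjusted 0.000777 and 0.000864), where 10.4% of all genes were called in r with CSRP3 and 11.4% in rho. It was 0.553 without the 2 muscles farthest in CSRP3, 0.816 in the re-analyzed libraries and 0.511 in the unmarked ones. Re-analyzed library 151, with the highest CSRP3, had 161 FPKM of ANKRD2, but unmarked library 67, with the lowest ANKRD2 (4.16 FPKM), had 115 FPKM of CSRP3. The level of ANKRD2 was 30.9% of that of CSRP3 at the median and ran from 3.61% to 301%.

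CSRP3 went the other way from MYBPC2. MYBPC2 against CSRP3 had r = -0.425 and rho = -0.422 (permutation p = 1e-05 each, adjusted 0.000777 and 0.000864), with -0.405 without the 2 farthest muscles, -0.280 in the re-analyzed libraries and -0.442 in the unmarked ones. Unmarked library 115 had the lowest MYBPC2, 953 FPKM, together with 407 FPKM of CSRP3. MYOZ2 against CSRP3 had r = 0.450 and rho = 0.440 (same permutation and adjusted p), with 0.429 without the 2 farthest muscles, 0.323 in the re-analyzed libraries and 0.467 in the unmarked ones.

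ANKRD2 too was lower in muscles with more MYBPC2. MYBPC2 against ANKRD2 had r = -0.430 and rho = -0.460 (permutation p = 1e-05 each, adjusted 7.77e-05 and 7.96e-05, with 37.4% of all genes called in r and 36.8% in rho), -0.425 without the 2 farthest muscles, -0.421 in the re-analyzed libraries and -0.432 in the unmarked ones. MYOZ2 against ANKRD2 had r = 0.0705 and rho = 0.0927 (permutation p = 0.337 and 0.206, adjusted 0.479 and 0.333).

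ACTA1 went with PVALB and against MYOZ2, in a background where 65% of all genes were called in r with ACTA1, 66.8% in rho, and the median r was -0.215. PVALB against ACTA1 had r = 0.443 and rho = 0.398, and MYOZ2 against ACTA1 had r = -0.393 and rho = -0.388 (permutation p = 1e-05 each, adjusted 2.64e-05 in r and 2.56e-05 in rho). For PVALB r was 0.421 without the 2 farthest muscles, 0.411 in the re-analyzed libraries and 0.449 in the unmarked ones. For MYOZ2 it was -0.401, -0.250 and -0.416 in the same order. Because ACTA1 alone takes 6.56% of the FPKM, a muscle with more ACTA1 leaves less to other genes, and the part of this in its correlations was not tested.

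MYOZ1 had its largest r with another member, 0.219, with ACTA1 (rho = 0.262, permutation p = 0.00211 and 0.00027, adjusted 0.00429 and 0.000641), where 63% of all genes were called in r and 64% in rho. It was 0.241 without the 2 muscles farthest in MYOZ1, 0.178 in the re-analyzed libraries and 0.227 in the unmarked ones. The r of MYOZ1 with MYOZ2 was 0.0672 (permutation p = 0.360 against MYOZ1, adjusted 0.432), with 0.507 in the re-analyzed libraries and 0.0305 in the unmarked ones.

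**Figure D4:**
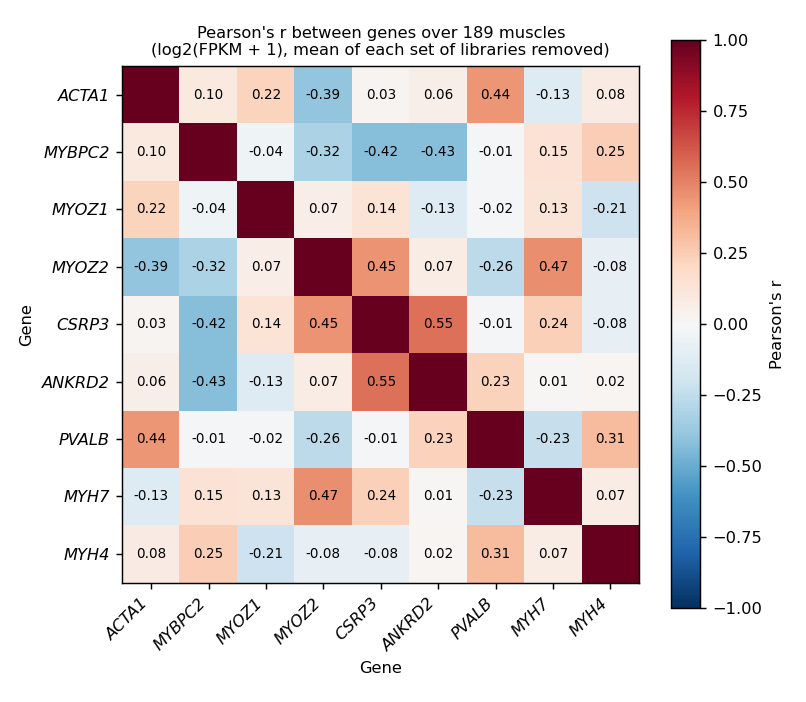
Pearson's r between the 7 genes, MYH7 and MYH4 over 189 muscles, on log2(FPKM + 1) with the mean of each set of libraries removed; red is positive, blue negative. CSRP3 with ANKRD2 is the strongest pair (0.55), and MYBPC2 is blue with ANKRD2, CSRP3 and MYOZ2.

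For each gene the 3 named genes with the highest r over the 189 muscles were taken as the most alike, as a description with no test, since all points share a library and its scaling. ACTA1 was most like the fast light chain MYLPF (0.665), the fast troponin TNNI2 (0.644) and the calcium store protein CASQ1 (0.634). MYBPC2 was most like the muscle glycogen phosphorylase PYGM (0.750), the fast alpha-actinin ACTN3 (0.706) and MYOM2 (0.603). MYOZ2 was most like PLN (0.794), TPM3 (0.771) and the M-band protein LRRC39 (0.697).

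MYOZ1 was most like ATP5G2, a subunit of the mitochondrial ATP synthase (0.807), the autophagy protein GABARAP (0.740) and the citric acid cycle enzyme SUCLG1 (0.722). In the re-analyzed libraries alone these r were 0.382, 0.0309 and 0.280, against 0.830, 0.785 and 0.748 in the unmarked ones, a difference that was not tested. CSRP3 was most like the small heat shock protein HSPB7 (0.629), HOOK2 (0.591) and the LIM protein LMCD1 (0.576).

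ANKRD2 was most like TNFRSF12A, the receptor of the cytokine TWEAK (0.795), the kinase DAPK3 (0.783) and BAG3, a co-chaperone that works at the Z-disc (0.775). In the sets they were 0.730, 0.747 and 0.775 in the re-analyzed libraries and 0.805, 0.792 and 0.777 in the unmarked ones. PVALB was most like the glucose-6-phosphate transporter SLC37A4 (0.621), the gene listed as IGHD (0.553) and the pyruvate kinase PKM (0.539).

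Against IMF, the trait of the study, 0 of the 7 genes were called, where limma called 0.084% of 10717 genes, 9 higher and 0 lower (9 higher and 2 lower with quantile normalization), and 527 had an unadjusted p under 0.05, 0 members among them. The slope of ACTA1 was -0.05 log2 units per unit of IMF (SE 0.0353, limma adjusted p = 0.961), with a 95% interval of -0.12 to 0.02. MYBPC2 had -0.00 (95% interval -0.04 to 0.03) and MYOZ1 0.01 (95% interval -0.03 to 0.05), the narrowest intervals. That of ANKRD2 was the widest, -0.19 to 0.19. Differences in slope between the re-analyzed and unmarked libraries did not pass for any of the 7 (0% of 10717 genes called by limma, with 176 at an unadjusted p under 0.05).

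The re-analyzed muscles of high IMF were also compared with those of low IMF. ACTA1 had 11669, 18204 and 21983 FPKM at its lowest, median and highest in the 10 high IMF muscles, against 4545, 26335 and 32013 FPKM in the 11 low IMF muscles. The ranges overlap, though 7 of the 11 low IMF muscles lie above the highest high IMF one. ACTA1 averaged 17168 ± 3372 FPKM at high IMF and 22387 ± 8041 FPKM at low IMF (SD, n = 10 and 11), a log2 difference of -0.26 (SE 0.248, limma adjusted p = 0.986). Without low IMF library 104, the lowest of all muscles, the difference was -0.48 and still not called (limma adjusted p = 0.289). With all 21 muscles and quantile normalization it was -0.03. Library 104 had the highest summed adipocyte markers of the low IMF muscles, 207 FPKM against 98.5 FPKM in the next. Its macrophage and smooth muscle sums were also the highest there. The fibroblast, endothelial and red blood cell sums were highest in other low IMF muscles. The part of these cells in its ACTA1 level was not tested.

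MYOZ2 had 25.1, 61.6 and 95.7 FPKM at high IMF, against 17.0, 64.4 and 106 FPKM at low IMF. ANKRD2 had 7.74, 31.1 and 179 FPKM at high IMF, against 7.38, 23.1 and 161 FPKM at low IMF. PVALB had 0.392, 10.8 and 43.1 FPKM at high IMF, against 1.43, 4.99 and 42.1 FPKM at low IMF. The groups overlap throughout for all 3 genes.

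Limma called 0 of the 7 genes and 0.084% of all 10717, 9 higher and 0 lower (6 higher and 1 lower after a shift to a common median), with 475 having an unadjusted p below 0.05, again 0 members. The interval of the difference was narrowest for MYOZ1 (0.08, 95% interval -0.13 to 0.30) and widest for ANKRD2 (0.33, 95% interval -0.92 to 1.58, with 0.06 to 0.58 when each library was left out in turn). For CSRP3 it was -0.73 to 1.10 and for PVALB -0.90 to 1.25. A rise of 1 log2 unit at high IMF in ANKRD2, CSRP3 or PVALB lies within these intervals, and a fall of 1 log2 unit lies outside them. Of 10 adipocyte markers 6 were higher at high IMF (median log2 difference 0.83).

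**Figure D5:**
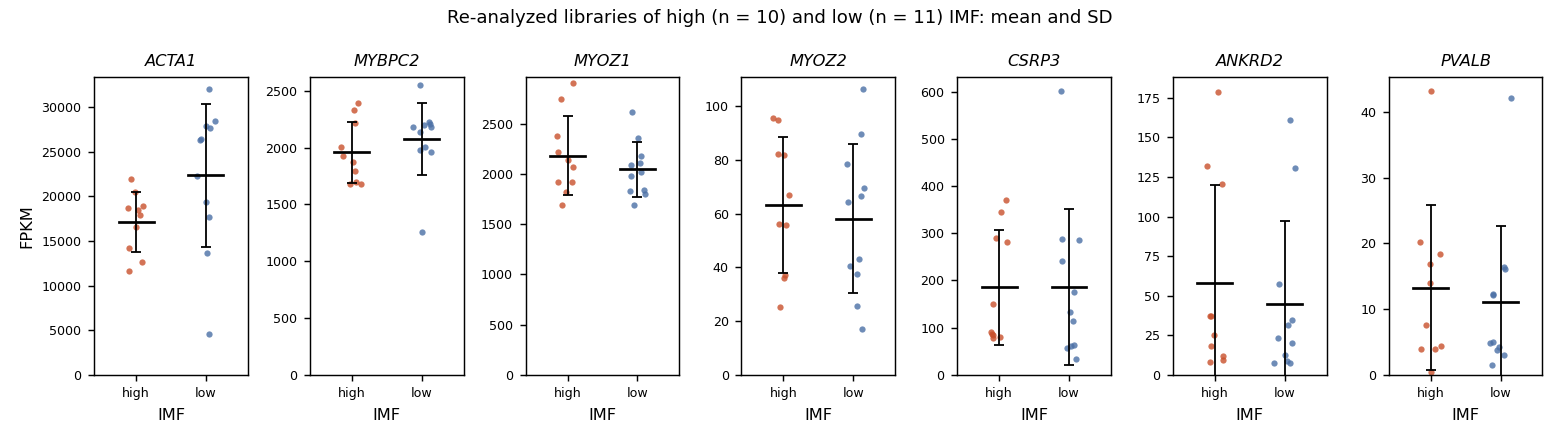
FPKM of the 7 genes in 10 high IMF muscles on the left and 11 low IMF muscles on the right of each panel, all re-analyzed, 1 point per muscle, with the mean as a bar and the SD as whiskers that end at the axis where they pass 0. The groups overlap in every panel, and the lowest ACTA1 value (4545 FPKM) is a low IMF muscle.

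The mark separates the libraries widely. With IMF as a linear term in the fit, 41.1% of 10717 genes differed between the 21 re-analyzed and 143 unmarked libraries, 18.3% higher and 22.7% lower in the re-analyzed ones, and 2 of the 7 members did. The re-analyzed animals lie at 0.77 to 2.33 and 4.83 to 6.84, partly outside the unmarked range of 1.19 to 5.61. The fit therefore reaches beyond the IMF values that both sets share. ACTA1 had 4545, 18981 and 32013 FPKM at its lowest, median and highest in the re-analyzed libraries, against 10557, 27525 and 48861 FPKM in the unmarked ones with IMF. Most re-analyzed libraries lie in the lower part of the unmarked range. The log2 difference was -0.50 (SE 0.119, limma adjusted p = 0.000434).

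MYBPC2 had 1255, 2005 and 2557 FPKM in the re-analyzed libraries, against 953, 1740 and 2728 FPKM in the unmarked ones. It was higher in the re-analyzed libraries by 0.21 (SE 0.0638, limma adjusted p = 0.0064), within overlapping ranges. That call was lost with quantile normalization (0.12, adjusted p = 0.174) and after rescaling without the 10 highest genes (0.12, adjusted p = 0.153). Under the rescaling 1366 genes were higher and 3304 lower, against 1964 and 2436 in the values as deposited.

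PVALB, with a difference of -0.59 (95% interval -1.17 to -0.01), had an adjusted p of 0.0958 by limma, and over all 189 libraries with no IMF term it was -0.67 with an adjusted p of 0.0463. MYOZ2 (0.30), CSRP3 (0.28), ANKRD2 (-0.39) and MYOZ1 (0.06) did not pass. What the mark stands for cannot be told apart from the animals that carry it.

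Markers of other cell types moved with the mark. Lower in the re-analyzed libraries were 8 of 10 adipocyte, 7 of 7 fibroblast, 3 of 5 endothelial, 3 of 4 smooth muscle, 6 of 6 macrophage and 2 of 2 red blood cell markers, and 0 were higher. The summed fibroblast markers ran from 186 to 1141 FPKM in the re-analyzed libraries and from 167 to 2226 FPKM in the unmarked ones, the macrophage markers from 6.15 to 34.9 and from 10.5 to 93.1 FPKM, with CD163 at 0 in some library of each set. With the mean of the adipocyte markers in the same fit MYBPC2 was not called (0.13, limma adjusted p = 0.0961). The part of the other markers was not tested. Slopes of the 7 genes on MYH7 or MYH4 did not pass a test of difference between the sets (limma, 0 of 7 each; 0.00933% and 0% of all genes called, with 710 and 280 genes at an unadjusted p under 0.05).

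Sample titles include a numeric code of unstated meaning, and 146 animals share its leading 9 digits with at least 1 other, in 48 groups. Of the 7 genes 0 passed a test between codes, and PVALB alone had an unadjusted p under 0.05 (limma moderated F test, 1.82% of 10717 genes called, 2014 at an unadjusted p under 0.05). PVALB had the largest share of variance between codes among the members, an intraclass correlation of 0.128 (adjusted p = 0.256 by limma), followed by CSRP3 (0.102), MYBPC2 (0.0709), MYOZ2 (0.0631), ACTA1 (0.0293), MYOZ1 (0.0204) and ANKRD2 (-0.0121). The median over all genes was 0.0475, and MYH4 had 0.176 and MYH7 0.105. These 4 highest members lie above that median and the other 3 below it.

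Transcripts were also listed separately. Of 7 ACTA1 transcripts, ENSSSCT00000048569 held 53.7% of the gene's FPKM on average and ENSSSCT00000040776 held 22.9%. ENSSSCT00000050871 held 12.3% on average but ran from 4.10% to 45.9%, and its level had an r of 0.0681 with that of the gene over 189 muscles, as a description. MYBPC2 had ENSSSCT00000003575 with 86.3% and ENSSSCT00000003574 with 13.7%. The share of ENSSSCT00000003574 ran from 0.296% to 42.4%, and its median was 18.7% in the re-analyzed libraries, against 10.8% in the unmarked ones, a difference that was not tested.

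MYOZ1 was held to 79.9% by ENSSSCT00000011277, ANKRD2 to 70.9% by ENSSSCT00000011512 and PVALB to 95.9% by ENSSSCT00000035876. CSRP3 and MYOZ2 have 1 listed transcript each. MYH7 was summed from 6 transcripts, of which ENSSSCT00000002271 held 62.1% on average, between 28.6% and 75.9%. All of them except ENSSSCT00000035069 overlap another gene identifier listed without a symbol. ENSSSCT00000035069 (75677090 to 75704483) lies wholly beyond ENSSSCT00000002271 (75650847 to 75672910) and held 3.06% on average. Reads in the shared stretches could belong to either gene, and their part in the MYH7 sum was not tested. Fits on the most abundant transcript alone used that transcript as MYH7. Estimates for transcripts that share exons depend on how the authors' assembler divided the reads.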

How the data were processed

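Polyadenylated RNA of 189 pig longissimus dorsi muscles was sequenced. HISAT2 2.0.5, StringTie 1.3.3 and the build Sscrofa11.1 are named in the submitters' processing notes; neither the annotation release nor a later scaling is stated there. In the deposited table each transcript has 1 value per sample. Per the file headers no unit is named, and FPKM as the authors' assembler writes them was inferred from the columns and the sample sums. Whole-read steps were not found in the low values, so depth is unknown and precision is the spread between animals.

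FPKM were summed per gene identifier, genes with a mean of at least 0.5 were kept, and log2(FPKM + 1) was fitted with limma 3.58.1 in R 4.3.3 (lmFit, eBayes with a mean trend), 2-sided, with Benjamini-Hochberg adjustment over all genes tested. Fold changes on this scale understate the change of low genes. Correlations and ratio slopes used 100000 permutations within the sets of libraries in Python 3.11.15. The fits were tested on simulated data. The mark re-analyzed was a covariate of each limma fit over both sets, other than the comparison of the mark itself. The sign-flip tests of the order of levels used all 189 libraries with no covariate. Kinship between the pigs is not in the labels, so that each counted as 1 independent animal and p-values measure the spread between these animals.

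The members and gene lists were chosen with earlier results of these data known. Besides the members and myosins, the text names the 3 most alike genes per member and, per list, up to 4 called genes with the largest MYH7 slope. Genes named for MYH4, the other stretch-response gene ANKRD1 and the libraries singled out were chosen after their values were seen. Of the lists, TTN, RYR1, MYH1, LDB3 and some others are not analysed here, and of 6 cardiac markers 1 was measured (TNNT2). Alternatives were other pseudocounts, filters, scalings, sets of libraries and covariates. The most abundant transcript alone, the adipocyte marker mean and the title code block for IMF and the mark were chosen after seeing the data.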

Additional observations from a re-analysis of the deposited data

Results flagged for a closer look

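Among the 10 high IMF muscles of the re-analyzed set, PVALB reached 43.1 FPKM in library 59 with 20.2 FPKM in the next highest muscle, a gap of 0.535 of the group's range. That muscle also had the highest MYH7 (1370 FPKM) and MYH4 (2746 FPKM) of the 10. The check was run on FPKM for the 7 genes and both myosins, in this group of 10 only. For each gene, chance alone would mark about 1 in 20 groups if values were normally distributed. The PVALB values were uneven, with a mean of 13.3 FPKM above their median of 10.8 FPKM. The check was not run on the log2 scale, so the rate of chance marks is unknown here.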

How the results depend on the processing

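Of 98 recomputed counts of called members 81 equalled the count reported, 7 differed by at most 1.5 times and 10 by more. Every count that differed was with MYH7, with MYH4 or between re-analyzed and unmarked libraries. Counts for IMF, for high against low IMF and between title codes were 0 and stayed at 0, and they make up much of the equal ones. An equal count can also hide a swap. After a shift to a common median ACTA1 was called with MYH4 and MYOZ1 was not. Of 616 recomputed slopes and differences of single members 585 kept their side of the threshold, 32 of these with a change of sign while not called. The count of members called with MYH7 was 3; it was 2 with a pseudocount of 0.1, rescaling and the unmarked libraries alone, 4 after a shift to a common median, and 1 (MYOZ2) in the re-analyzed libraries alone, without the 2 lowest and 2 highest MYH7 muscles, and with the most abundant transcript alone. The count with MYH4 was 3; it was 2 with rescaling and without library 39, and 1 (PVALB) with quantile normalization, without the 2 lowest and 2 highest MYH4 muscles, and with the adipocyte marker mean in the fit; it was 0 in the re-analyzed libraries alone. The count between re-analyzed and unmarked libraries was 2; it was 3 with no IMF term, and 1 (ACTA1) with quantile normalization, rescaling and the adipocyte marker mean. The share of all genes called changed with the setting too. With MYH7 it was 4.08% as reported, 4.31% in the unmarked libraries alone and 0.131% in the re-analyzed ones alone. With MYH4 it was 14.9% as reported, 8.79% without library 39 and 0% in the re-analyzed libraries alone. For the scalings the numbers of genes called are given with each myosin above. The slope of MYOZ1 on MYH4 was 0.042 after a shift to a common median, opposite in sign. The slope of the ANKRD2 to CSRP3 ratio on MYH7 was 0.24 in the re-analyzed libraries. Without the 2 lowest and 2 highest MYH7 muscles that slope was -0.24. PVALB with MYH7 was also not called with a pseudocount of 0.1 (limma adjusted p = 0.0577), quantile normalization (0.0546) or rescaling (0.123). With quantile normalization the count with MYH7 stayed at 3, because another member was called in place of PVALB. The cause of these changes was not tested; the 21 re-analyzed libraries are fewer, and limma called 14 and 0 genes of all those tested in them with MYH7 and MYH4. Leaving out each high or low IMF library in turn gave 0 members throughout. No paired analysis was possible because no replicate number recurs between groups. Animals that share a title code were treated as a random block instead, which changed no count with MYH7, MYH4, IMF, high IMF or the mark (correlation 0.0398, 0.0389, 0.0206, 0.479 and 0.0206); at high and low IMF only 4 of 21 libraries share a code. What depth limits for genes at the level of PVALB is unknown, since the table gives FPKM alone.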

Other observations

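The 25 unmarked animals with no recorded IMF entered the fits on the myosins but no comparison of IMF. ACTA1 had 19403, 30255 and 46106 FPKM at its lowest, median and highest in them, and PVALB had 3.90, 17.7 and 74.0 FPKM. CSRP3 had a median of 166 FPKM and ANKRD2 one of 50.0 FPKM there.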
